A study of Mus musculus with 12 samples.

Results

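PAX5 was expressed from a retrovirus in mouse progenitors that lack EBF1, and the response was read across all genes on 3 PAX5 arrays and the 3 control arrays of the same set, out of 12 arrays in the series. All 12 arrays held total RNA from Ebf1-/- pre-pro-B cells of strain C57BL/6, kept on OP9 cells, a bone marrow stromal line, in 4% serum with SCF and Flt3L at 10 ng/ml and IL-7 at 5 ng/ml. The cells received a virus for GFP alone (control, MigR1), for PAX5 with GFP (Mig-PAX5) or, in the first set, for EBF1 with GFP (Mig-EBF1), and cells with GFP were sorted on day 2. PAX5 here is made from a viral insert in cells sorted for GFP. The animals' age is not among the labels, nor is it said whether replicates were grown or taken separately. The p-values therefore speak only to the spread among these samples, and that spread may be technical.

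PAX5 is the transcription factor that commits early lymphoid cells to the B lineage. It normally acts after EBF1, which helps to switch on its gene, and it is known both for activating B cell genes and for repressing genes of other blood lineages. The arrays describe which transcripts differed between cells given PAX5 and control cells, where the gene of that partner is mutated. MHC class II molecules, which present peptides to T helper cells, are made by B cells and other antigen-presenting cells, and the coactivator CIITA controls their genes.

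Not every array counted as a sample of its own. PAX5 arrays 2 and 3 differed by a robust SD of 0.077 in log2 over bright probe sets, where the remaining pairs of arrays inside a group gave 0.211 to 0.359, and were averaged into 1 sample, which left 2 PAX5 samples. Control arrays of equal number in both sets differed by 0.039 to 0.094, against 0.287 to 0.374 for unequal numbers, and were averaged after removal of the offset between sets, which left 3 control samples. Median intensity on the 6 arrays ran from 65.3 to 68.9, and their number limits the precision. Intensities below are of the second set, in the order of the arrays' numbers. Log2 changes are of intensity plus 16, which understates the change of dim genes.

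Pax5 itself read 12.8, 8.97 and 7.98 on the control arrays and 1849, 891 and 932 on the PAX5 arrays. No array of either group reached the other, and array 1 was the highest. The log2 change was 5.67 (SE 0.27, limma adjusted p = 4.4e-05), while a second Pax5 probe set stood at -0.14 (adjusted p = 0.91). Ebf1, the gene mutated in these cells, read 1934, 2083 and 1943 in controls and 2071, 1893 and 1940 with PAX5, a log2 change of 0.00. Where the probes of either gene lie relative to the mutation or the viral insert is not given here, so Ebf1 checks nothing about the genotype. Of 13 marker genes of pre-pro-B cells and their precursors none passed the test. Over all genes 0.797% were higher and 0.077% lower, so no call in a list of this size is near the background. The pan-leukocyte gene Ptprc lay between 5609 and 6571 on all 6 arrays, and Cd34, a stem and progenitor surface protein, between 2156 and 3938. Others were dimmer. Kit, the SCF receptor, lay between 113 and 379. Ly6d, a surface marker of early lymphoid cells, lay between 73.5 and 131, and Dntt between 38.0 and 809. Without passing, Flt3 and Ly6d were lower, and Cd34 and Spn higher, on every PAX5 array than on any control array.

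Most of the response was upward. With PAX5, 145 of 18193 genes rose (0.797% of genes tested) and 14 fell (0.077%), by limma at an adjusted p under 0.05. A further 82 genes had an adjusted p between 0.05 and 0.1, and 1720 genes had an unadjusted p under 0.05 where 910 would be expected. The genes that rose had a median log2 change of 1.62, with 48 above 2, 75 between 1 and 2 and 22 under 1, whereas the median over all genes was -0.0083. Of those 145 genes, 57 had a control mean under 50 and 15 a control mean over 1000. All 145 had their 3 PAX5 arrays above their 3 controls, which holds for 9.34% of all genes, and all 14 that fell had them below, which holds for 8.95%. The genes that fell had a median log2 change of -1.22, and 4 of them changed by more than 2. A fit with the replicate number as a block on the 6 arrays called 212 higher and 39 lower. The block fit counts the near-identical PAX5 arrays 2 and 3 separately.

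**Figure D1:**
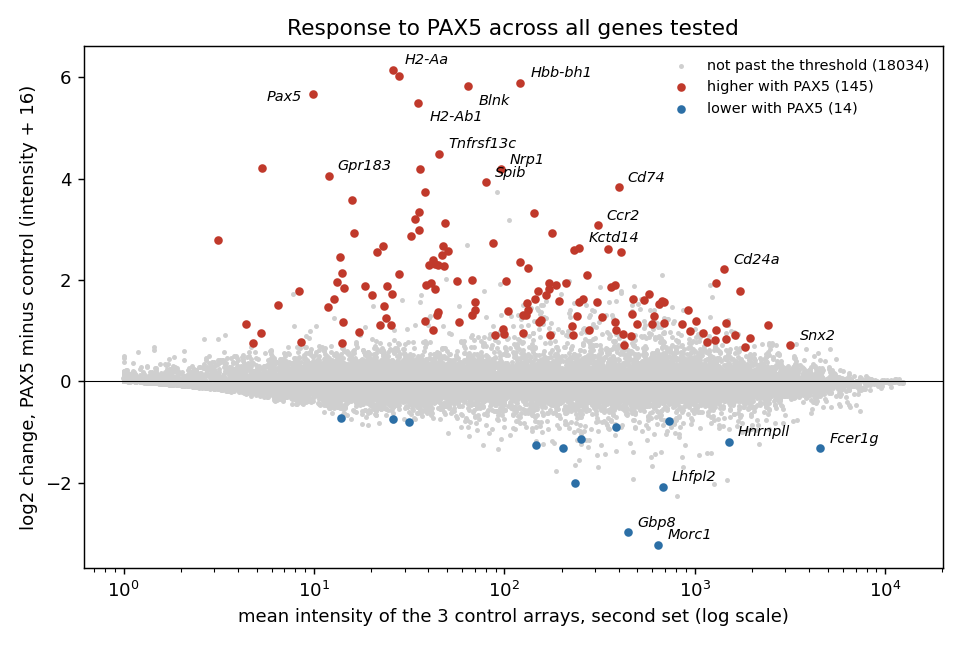
Log2 change with PAX5 (PAX5 minus control, of intensity plus 16) against the mean control intensity of the second set on a log scale, 1 point per gene for 18193 genes. Red points are the 145 genes that rose, blue the 14 that fell and grey the rest. The largest rises, among them H2-Aa, Pax5 and Blnk, come from genes dim in the controls, and Fcer1g is the brightest gene that fell.

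How many genes passed depended on single samples. Without PAX5 array 1, where 1 PAX5 sample remained and was assumed to vary like the other groups, 28 genes rose and 0 fell, with 828 genes at an unadjusted p under 0.05. Those 28 were all among the 145. Without PAX5 arrays 2 and 3 the counts were 90 and 2. Leaving out control 1, 2 or 3 gave 97, 89 and 73 rises, and 3, 8 and 8 falls. All 145 and 14 genes kept their direction in these fits, which their separate groups already fix. Of the 20 largest rises, 11 passed in every fit that left out a sample: H2-Aa, H2-Eb1, H2-Ab1, Cd74, Pax5, Cartpt, Nrp1, Gpr183, Siglecg, Klhl14 and Hbb-y. The other 9 missed the threshold without PAX5 array 1, and some of them without other samples too. All 14 falls missed it without PAX5 array 1.

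MHC class II genes held the 2 largest rises. Of 18 measured genes of class II presentation, 7 rose, where 0.797% of all genes did, and 0 fell, with a list median of 1.39 against -0.0083 over all genes, and 7 rose in every fit that left out a sample. H2-Aa, the alpha chain of the I-A molecule, read 25.4, 28.7 and 24.4 in controls and 3846, 2366 and 2244 with PAX5. H2-Eb1, the beta chain of I-E, read 35.8, 27.9 and 20.7 against 3292, 2501 and 2405. Both pairs of groups were far apart, and PAX5 array 1 was the highest in each. Their log2 changes were 6.15 (SE 0.25, limma adjusted p = 1.8e-05) and 6.03 (SE 0.21, adjusted p = 1.1e-05). H2-Ab1, the beta chain of I-A, went from 35.4 ± 8.27 (SD, n = 3) to 2331 ± 597 (n = 2), a log2 change of 5.50 with adjusted p = 1.1e-05. All 3 further probe sets of H2-Aa and both of H2-Ab1 also rose.

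The windows around the starts of H2-Aa and H2-Eb1, the genes with the largest changes, are shown because class II genes are known for a short regulatory module just upstream of the start, of which the Y box, with the core ATTGG, is a part. They run from 250 bases before to 50 after the RefSeq start in GRCm38.p6, at chr17:34287774-34288073 on the minus strand for H2-Aa and at chr17:34305617-34305916 on the plus strand for H2-Eb1. Capitals mark ATTGG on either strand, which reads CCAAT on the other.
H2-Aa: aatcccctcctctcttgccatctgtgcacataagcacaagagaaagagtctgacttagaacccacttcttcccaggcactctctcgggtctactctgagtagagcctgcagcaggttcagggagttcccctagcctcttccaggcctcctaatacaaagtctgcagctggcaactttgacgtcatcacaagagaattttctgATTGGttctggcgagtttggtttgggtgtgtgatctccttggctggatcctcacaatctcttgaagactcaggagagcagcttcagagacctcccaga
H2-Eb1: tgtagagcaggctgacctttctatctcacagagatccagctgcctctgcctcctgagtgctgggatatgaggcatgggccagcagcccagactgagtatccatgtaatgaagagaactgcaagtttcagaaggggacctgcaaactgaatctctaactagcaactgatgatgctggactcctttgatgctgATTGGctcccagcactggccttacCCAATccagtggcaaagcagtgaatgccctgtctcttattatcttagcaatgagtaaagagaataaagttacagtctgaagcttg
H2-Aa held 1 match, at position -48, and H2-Eb1 held 2, at -59 and -35, where the count is from the start. These letters are common: 37.4% of 18109 windows of all tested genes held them, 33.6% of 134 windows of genes that rose and 44.4% of 9 windows of genes that fell. A match is a description of the window, not a site of binding.

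Of the other genes of class II presentation, Cd74, Ciita, H2-DMb2 and Marchf1 rose. Cd74, the invariant chain that escorts class II molecules through the cell, was already at 433, 350 and 412 in controls and read 6527, 5328 and 5268 with PAX5, a log2 change of 3.84 (adjusted p = 0.00094). Ciita, the class II coactivator, read 46.2, 35.8 and 44.2 against 309, 272 and 271, a log2 change of 2.40 (SE 0.14, adjusted p = 0.00014), and both of its other probe sets rose. The PAX5 arrays agreed closely for Ciita and lay well clear of the controls. H2-DMb2, a chain of the peptide-loading molecule H2-DM, rose by 2.35 and Marchf1, a ubiquitin ligase that removes class II from the surface, by 2.93, although 1 of 2 further Marchf1 probe sets stood at -0.12. The remaining 11 members did not pass. The nearest were H2-DMa (log2 change 1.24, adjusted p = 0.13) and the lysosomal proteases Ctss (2.11, 0.32) and Lgmn (1.54, 0.37). Ctss controls were spread, at 693, 1058 and 276, whereas for Lgmn the PAX5 arrays were, at 1020, 485 and 495. Rfx5, Rfxank and Rfxap, the subunits of the factor that binds class II promoters, lay between -0.10 and 0.24.

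**Figure D2:**
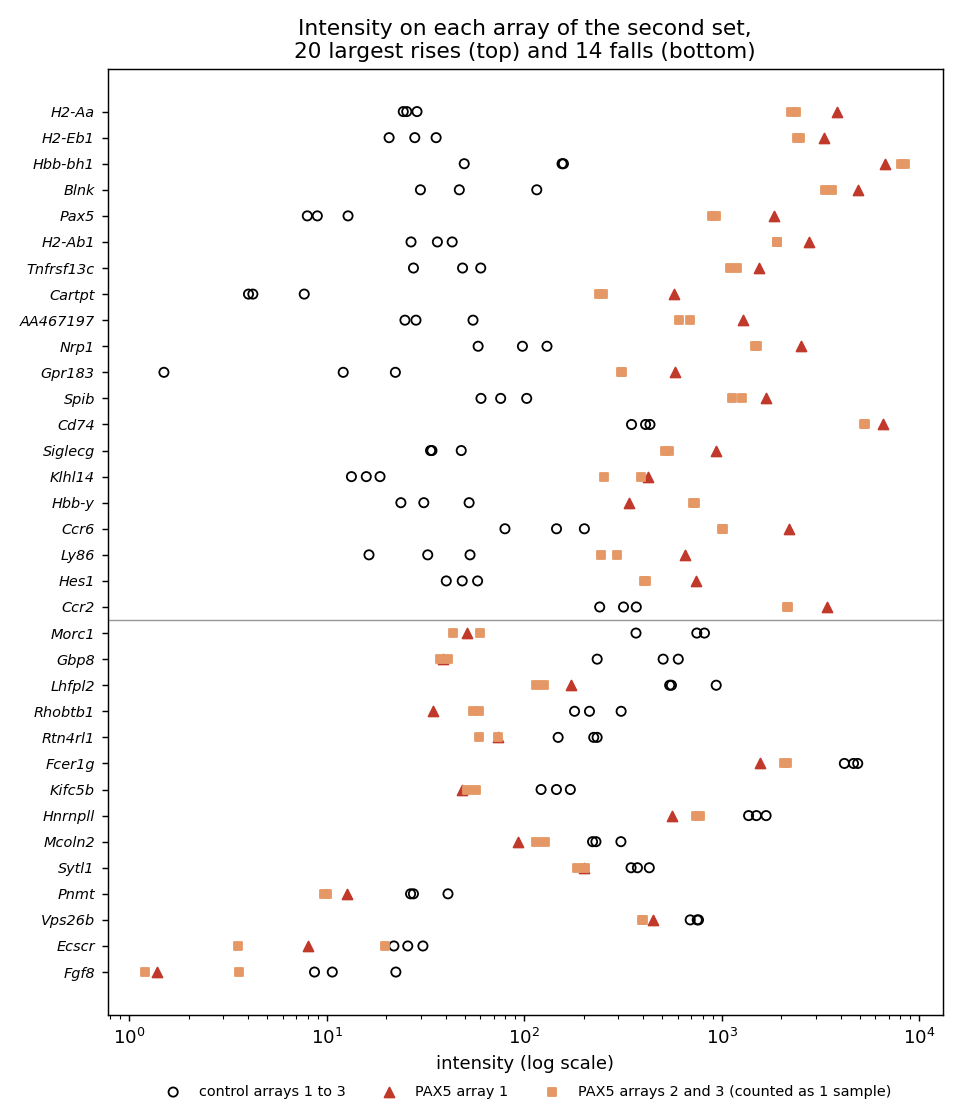
Intensity on a log scale for the 20 largest rises (above the line) and the 14 falls (below it) on each array of the second set. Open circles are control arrays, triangles PAX5 array 1 and squares PAX5 arrays 2 and 3, which count as 1 sample. The groups do not overlap for any gene shown. PAX5 array 1 lies farther from the controls than arrays 2 and 3 for most rises, with Hbb-bh1 and Hbb-y as exceptions.

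Each list count from here on stands against shares over all genes of 0.797% higher and 0.077% lower. Of 29 measured genes that PAX5 is known to activate, 8 rose and 0 fell, with a list median of 0.41. That count was 3 without PAX5 array 1, between 7 and 10 in the other fits that left out a sample, and 13 with the replicate block. Blnk, the adaptor that links the pre-B cell receptor to its downstream enzymes, read 116, 29.8 and 47 in controls and 4877, 3639 and 3351 with PAX5. Its log2 change was 5.84 (SE 0.66, adjusted p = 0.0052). Tnfrsf13c encodes a receptor for the survival factor BAFF and read 48.8, 60.3 and 27.5 against 1550, 1190 and 1100, a log2 change of 4.49 (SE 0.44, adjusted p = 0.0028). Neither gene's groups came near each other. Without PAX5 array 1 the changes were 5.60 and 4.28 with adjusted p = 0.10 and 0.060. The other 6 were Spib, Siglecg, Irf4, Ciita, Bcar3 and Plekha2. Bcar3, a signalling adaptor, went from 3.12 ± 1.41 (n = 3) to 118 ± 20.3 (n = 2), a log2 change of 2.80. The other Bcar3 probe set stood at 0.16 (limma adjusted p = 0.83). Plekha2, a lipid-binding adaptor, was already at 1628 ± 66.6 in controls and rose by 0.91. Plekha2 also missed the threshold without any single control (adjusted p = 0.12 to 0.16) and without either PAX5 sample.

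Several genes on that list gave no call. Cd79a, a signalling chain of the B cell receptor and a long-known PAX5 target, read 67.4, 58.2 and 79.1 in controls and 93.4, 97.5 and 97.4 with PAX5, a log2 change of 0.41 (adjusted p = 0.83). The groups did not overlap, but all 6 values were low. Cd72, a B cell co-receptor, stood at 1.03 (adjusted p = 0.25), and Bach2, a repressor of plasma cell fate, at 1.51 (0.16), which passed with the replicate block (1.43, 0.017). Lef1, Ikzf3 and Id3, transcription factors known as PAX5 targets in pro-B cells, lay between 0.05 and 0.28. In 7 of the 29, Lef1 and Id3 among them, every array of the second set was under 50.

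The pre-B receptor list gave no call in 7 measured genes, with a median of 0.38. It summed to 3961 to 7329 on control arrays and to 8812, 8296 and 8063 with PAX5. Nearest to the threshold were Cd79b, Vpreb3 and Ighm. At the shares over all genes, no call in a list of this size is near the background. Vpreb1 and Igll1, which form the surrogate light chain, stood at 0.20 (adjusted p = 0.93) and -0.17 (0.93). Vpreb1 read 67.2, 45.5 and 44.0 in controls and 65.1, 56.9 and 59.9 with PAX5, so the groups overlapped. Cd79b, the partner of Cd79a, read 23.3, 21.0 and 16.7 against 85.0, 92.2 and 83.3, a log2 change of 1.50 (adjusted p = 0.34) that passed with the replicate block (adjusted p = 0.013). Its groups were apart, at levels still under 100. Ms4a1, which encodes the surface protein CD20, lay under 50 on all 6 arrays.

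Downstream of the receptor, 3 of 27 kinases and adaptors rose and 0 fell, with a median of 0.36. Beside Blnk these were Vav2, a guanine nucleotide exchange factor, which rose by 1.62 (SE 0.28, adjusted p = 0.041), and Cblb, a ubiquitin ligase that dampens receptor signals, by 1.28 (SE 0.18, 0.016). Neither passed when either PAX5 sample or control 2 or 3 was left out, and Vav2 did not pass without control 1 either (adjusted p = 0.13 to 0.14 without a control for Vav2). The list's count was 0 without PAX5 array 1, 1 without arrays 2 and 3, and 2, 1 and 1 without controls 1, 2 and 3. A further Vav2 probe set stood at -0.16 and both further Cblb probe sets missed the threshold. Btk and Syk, kinases of the receptor, stood at 0.73 (adjusted p = 0.059) and 0.64 (0.14).

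Of 32 B cell co-receptors and surface regulators, 4 rose and 0 fell, with a median of 0.26, and the count was 2 without PAX5 array 1. Siglecg, an inhibitory lectin of B cells, read 33.6, 34.1 and 48.0 in controls and 940, 519 and 544 with PAX5. Its log2 change was 3.74 (SE 0.22, adjusted p = 0.00015). Ly86, the partner of the Toll-like receptor relative CD180, read 53.2, 32.5 and 16.4 against 655, 297 and 245, a log2 change of 3.20 (adjusted p = 0.0067). Cd180 itself stood at 0.18. Cd24a, the heat-stable antigen that marks B cell stages, was bright in controls at 1125, 1850 and 1324 and reached 6472, 6943 and 6440, a log2 change of 2.22 (adjusted p = 0.0028). Fcrl1, an Fc receptor-like protein of B cells, rose by 1.62 (SE 0.14, adjusted p = 0.0014). Without PAX5 array 1, Ly86 and Cd24a had adjusted p = 0.063 and 0.056.

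Among 29 B lineage transcription factors, 2 rose and 0 fell, with a median of 0.24. Spib, an Ets factor related to PU.1, read 103, 76.0 and 60.4 in controls and 1681, 1130 and 1268 with PAX5, a log2 change of 3.93 (SE 0.46, adjusted p = 0.0063). Irf4, an interferon regulatory factor used by pre-B and plasma cells, read 90.1, 52.9 and 120 against 776, 511 and 557, a log2 change of 2.72 (SE 0.34, adjusted p = 0.0085). For both genes the lowest PAX5 array was several times the highest control. The list's count was 0 without PAX5 array 1 (adjusted p = 0.12 for Spib and 0.17 for Irf4), 3 without arrays 2 and 3, 5 without EBF1 array 3, and 8 with the replicate block. Next below the threshold were Bcl11a (log2 change 1.74, adjusted p = 0.056), Irf8 (1.89, 0.064) and Bcl6 (1.31, 0.072), and Foxo1 at 1.31 (0.34) passed with the block (1.25, 0.017). Tcf3, which encodes the E proteins E12 and E47, and Ikzf1, which encodes Ikaros, lay at -0.02 and 0.11.

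**Figure D3:**
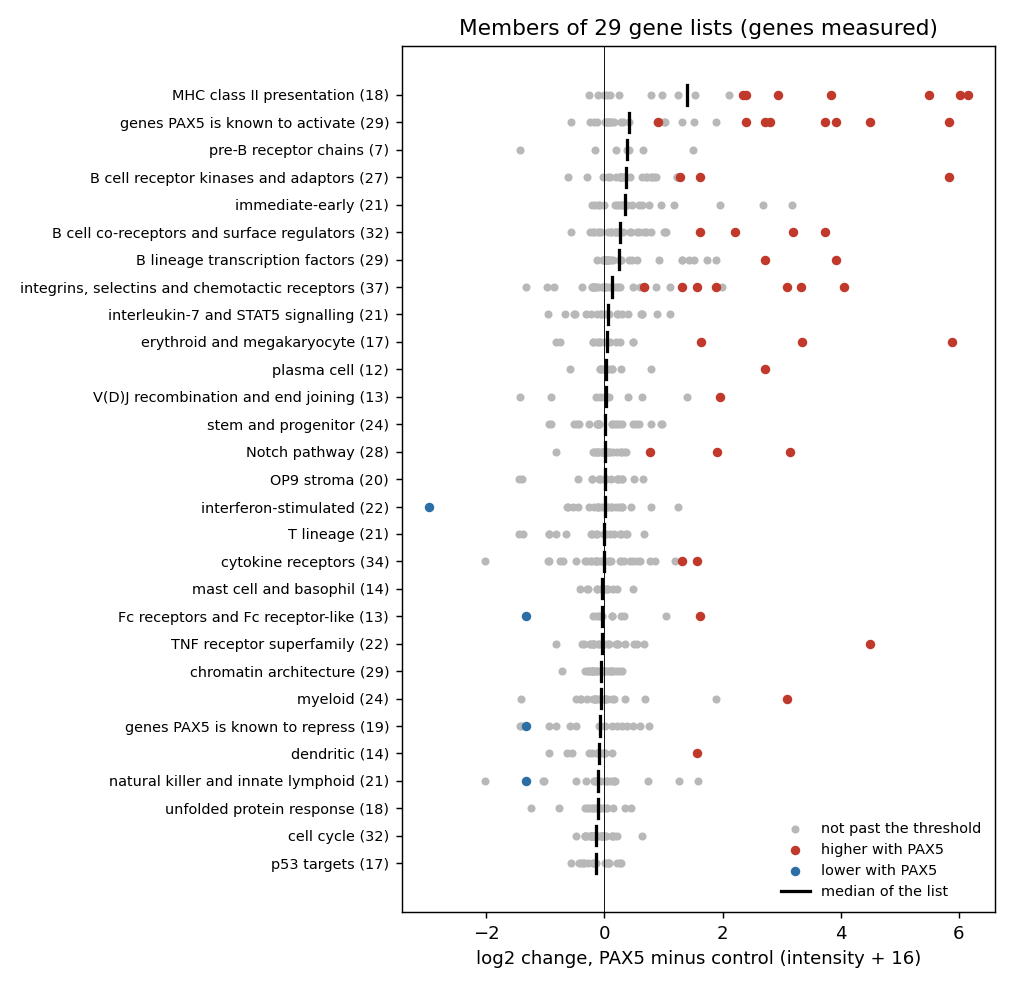
Log2 change with PAX5 (of intensity plus 16) for each measured gene of 29 lists, 1 row per list with its number of measured genes, ordered by median. Red points rose, blue points fell, grey points did not pass, and the black bar is the list's median. MHC class II presentation has the highest median, at 1.39, and the medians of the other lists lie between -0.14 and 0.41.

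Receptors that steer cell movement made up the next group. Of 37 integrins, selectins and chemotactic receptors 7 rose and 0 fell, with a median of 0.13, and the count was 1 without PAX5 array 1, 4 without arrays 2 and 3 and 4 without control 3. Gpr183, the oxysterol receptor EBI2 that positions B cells, read 22.3, 1.50 and 12.1 in controls and 582, 310 and 315 with PAX5, a log2 change of 4.06 (adjusted p = 0.00094). Ccr6, a chemokine receptor of B cells, read 202, 79.9 and 146 against 2193, 1016 and 1002, a log2 change of 3.33 (SE 0.56, adjusted p = 0.037). Ccr2, best known from monocytes, read 318, 370 and 241 against 3406, 2129 and 2177, a log2 change of 3.08 (adjusted p = 0.0031), and its 3 further probe sets rose as well. All 3 receptors had array 1 well above arrays 2 and 3. Without array 1 the adjusted p was 0.016 for Gpr183, 0.49 for Ccr6 and 0.059 for Ccr2, and Ccr6 also missed the threshold without arrays 2 and 3 (0.091) or without any single control (0.070 to 0.13). Ccr1 rose by 1.89, the integrin alpha chain Itgax by 1.56, the sphingosine phosphate receptor S1pr1 by 1.31 and the laminin-binding chain Itga6 by 0.67. Itga6 missed the threshold with the replicate block (adjusted p = 0.058) and in every fit that left out a sample (0.055 to 0.38). Ccr1, Itgax and S1pr1 missed it without PAX5 array 1 (0.12, 0.27 and 0.18), Itgax also without arrays 2 and 3 (0.076), and Ccr1 without control 3. Cxcr5, the follicle-homing receptor, stood at -0.85 (adjusted p = 0.60).

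In the Notch pathway, which directs progenitors toward the T lineage, 3 of 28 genes rose and 0 fell, with a median of 0.02. Hes1, a repressor induced by Notch, read 48.6, 58.1 and 40.3 in controls and 745, 412 and 403 with PAX5, a log2 change of 3.14 (SE 0.44, adjusted p = 0.016). Dtx1, an E3 ligase also induced by Notch, read 195, 218 and 146 against 824, 607 and 697, a log2 change of 1.90 (adjusted p = 0.0015). Both were clear of the controls. Dll1, a Notch ligand, stayed under 50 on all arrays and rose by 0.77 (adjusted p = 0.041, 0.11 with the block, and 0.059 to 0.37 in the fits without a control, EBF1 array 1 or 2, or a PAX5 sample). Hes1 had adjusted p = 0.26 without PAX5 array 1, 0.054 without arrays 2 and 3 and 0.055 to 0.077 without a control, and the list's count was 1 in each of these fits. The other Dtx1 probe set stood at -0.02. Notch1, the receptor, read 3407, 2084 and 2455 against 1578, 1320 and 1378, a log2 change of -0.82 that did not pass (adjusted p = 0.34). Nrarp, Hey1 and Hes5, other genes of the list that Notch is known to induce, lay between -0.19 and 0.10.

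Globin transcripts stood out from the rest of their list. Hbb-bh1, an embryonic beta-like globin, read 158, 49.7 and 155 in controls and 6682, 8431 and 8054 with PAX5, a log2 change of 5.89 (SE 0.69, adjusted p = 0.0063). Hbb-y, another embryonic beta-like globin and its chromosomal neighbour, read 52.6, 31.0 and 23.8 against 341, 731 and 717, a log2 change of 3.35 (SE 0.33, adjusted p = 0.0027). Here array 1 was the lowest PAX5 array for both genes. All further probe sets of both rose, 2 for each, with changes of 6.01 and 6.20 for Hbb-bh1. Beta-like globins resemble each other in sequence, and whether probes of one gene also caught another was not tested. Hba-a1 and Hba-x, alpha-like globins, were under 50 on every array, as was Alas2, the heme synthesis enzyme of red cells, and Klf1 and Gata1, the factors that drive red cell development, stood at 0.00 and 0.49 without passing. Vwf, a megakaryocyte and endothelial gene, was the other of 17 members that rose, at 117, 41.4 and 45.0 with PAX5 against a highest control of 14.3, and did not pass with the block (adjusted p = 0.14) or without PAX5 array 1 (0.10), any single control (0.12 to 0.14) or any single EBF1 array (0.061 to 0.081). The list's count was 1 without PAX5 array 1 and 2 in each other fit that left out a sample. Without PAX5 array 1 Hbb-bh1 had adjusted p = 0.097 and without arrays 2 and 3 0.070, while Hbb-y passed in both.

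Among the 20 largest rises, 4 genes belonged to none of the lists apart from Pax5. Nrp1, a co-receptor for semaphorins and VEGF, read 130, 58.5 and 98.0 in controls and 2517, 1505 and 1481 with PAX5, a log2 change of 4.18 (SE 0.36, adjusted p = 0.0015), and its 3 further probe sets rose. Cartpt, a neuropeptide precursor, read 7.70, 4.23 and 4.02 against 571, 250 and 239, a log2 change of 4.20. Klhl14, a kelch protein, read 15.9, 13.3 and 18.6 against 423, 390 and 255, a log2 change of 3.58 (SE 0.16, adjusted p = 2.9e-05). In all 3 the groups were far apart. AA467197 went from 36.1 ± 16.5 (n = 3) to 965 ± 446 (n = 2).

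Further genes that rose are named after their values were seen. Unc93b1, which carries nucleic acid-sensing Toll-like receptors to endosomes, rose by 2.59 and Traf5, an adaptor of TNF receptors, by 1.18. The other Traf5 probe set stood at -0.32 (limma adjusted p = 0.62). Lta, the cytokine lymphotoxin alpha, rose by 2.98 from controls of 12.8, 68.7 and 26.1 to 315, 417 and 377. Secreted growth factors included Tgfb3 (log2 change 2.49) and Pgf (2.68), and the TGF-beta receptor chain Tgfbr2 rose by 1.57. Further Tgfbr2 probe sets stood at 0.09 and 0.53 without passing. Btg1, an antiproliferative gene, was bright in controls at 1624, 1288 and 963 and rose by 1.94 to 5667, 4304 and 4204. Snx2, a sorting nexin, was the brightest gene in controls among those that rose, and changed by 0.72. In cytokine receptors as a list, 2 of 34 rose, Tgfbr2 and Il10ra, and the count was 0 without PAX5 array 1, 1 without control 1 or 3, where Il10ra was lost, and 4 with the block. Polm, a polymerase that joins broken DNA ends, was the single gene of 13 in V(D)J recombination and end joining to rise, by 1.96 (adjusted p = 0.20 without PAX5 array 1 and 0.051 without control 2), whereas Rag1 (-0.90, adjusted p = 0.77), Rag2 (1.40, 0.58) and Dntt (-1.42, 0.70) had widely spread controls: Dntt read 809, 66.8 and 141.

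Fcer1g, the signalling gamma chain of Fc receptors, was the 1 gene of 19 measured that PAX5 is known to repress and that fell. It read 4884, 4179 and 4649 in controls and 1568, 2143 and 2069 with PAX5, a log2 change of -1.32 (SE 0.19, adjusted p = 0.016). The groups were well apart and array 1 was the lowest. The call was lost without PAX5 array 1 (adjusted p = 0.24), control 1 (0.066) or control 3 (0.072). The list's median was -0.07. Flt3, the receptor for Flt3L, read 2870, 1822 and 2672 against 1328, 1178 and 1168, a log2 change of -0.94 that did not pass (adjusted p = 0.22). Neither did Il2rb (-0.48, 0.31) or Cd244a (-1.43, 0.32). Csf1r, a myeloid growth factor receptor, stood at -0.07.

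Morc1, best known from germ cells, had the largest fall, from 748, 818 and 368 to 51.5, 59.5 and 43.7, a log2 change of -3.22 (SE 0.52, adjusted p = 0.031). Gbp8, a guanylate-binding protein, read 603, 505 and 234 against 38.6, 41.0 and 37.7, a log2 change of -2.98 (SE 0.41, adjusted p = 0.015). In both the PAX5 arrays were closely spaced and the controls were not, and neither passed without control 1 or 2 (adjusted p = 0.11 for Morc1, 0.052 and 0.065 for Gbp8). Gbp8 was the 1 member of 22 interferon-stimulated genes that fell, and 0 rose. Lhfpl2, a tetraspan membrane protein, fell by 2.07 and Rhobtb1 by 2.01 on the log2 scale. Hnrnpll, the splicing regulator of Ptprc exons, read 1499, 1369 and 1678 against 561, 774 and 741, a log2 change of -1.19 (adjusted p = 0.012). Its call was lost without control 1 (adjusted p = 0.051) or control 3 (0.057). Rtn4rl1, Kifc5b, Mcoln2, Sytl1, Pnmt, Vps26b, Ecscr and Fgf8 made up the rest, with changes from -1.32 to -0.72. Pnmt, Ecscr and Fgf8, all under 50 on every array, missed the threshold with the replicate block (adjusted p = 0.089, 0.28 and 0.17). Without PAX5 arrays 2 and 3, Fcer1g (adjusted p = 0.041) and Hnrnpll (0.025) were the falls that passed, and without array 1 none did.

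Counts for markers of other cell types are small in lists of this size at the shares over all genes, 0.797% higher and 0.077% lower, and say little about the lists. Of T lineage genes 0 of 21 passed and of mast cell and basophil genes 0 of 14. The T cell receptor genes Cd3d, Cd3e, Cd3g and Cd247 were under 50 on every array. The T lineage list summed to 6518 to 7577 on control arrays and to 5029, 5557 and 5296 with PAX5, with log2 changes from -1.45 to 0.67. The natural killer and innate lymphoid list, which holds Fcer1g, summed to 14278 to 17941 against 12786, 11254.5 and 10667. For both lists every PAX5 array lay below every control array, as holds for 8.95% of single genes. Fcer1g alone read 4179 to 4884 on controls and 1568 to 2143 with PAX5, and the separation of the second sum depends on it. Of 24 myeloid genes 1 rose (Ccr2), with the granule and secretory genes Elane, Ctsg, S100a8 and S100a9 under 50 throughout, and of 14 dendritic genes 1 rose (Itgax, lost without either PAX5 sample), with Xcr1, Zbtb46 and Batf3 under 50. The myeloid count was 0 without PAX5 array 1 and 2 with the replicate block, without control 1 or without EBF1 array 3. The myeloid list summed to 7422 to 10141 on control arrays and to 15457, 11615 and 11216 with PAX5. The dendritic list summed to 10929 to 13512 against 9279, 10106 and 9828. These sums were separate as well, the myeloid above the controls and the dendritic below. For OP9 stroma, 0 of 20 genes passed. Its list summed to 2754 to 3934 in controls and 1710, 3039 and 2987 with PAX5, and Cxcl12, a stromal chemokine, read 14.1 on PAX5 array 1 beside 560 and 551 on arrays 2 and 3. The part of such cells in the results was not tested, and fewer cells of a type and less RNA per cell cannot be told apart in these bulk samples.

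No gene passed in 6 further lists: stem and progenitor (24 genes), interleukin-7 and STAT5 signalling (21), cell cycle (32), unfolded protein response (18), p53 targets (17) and chromatin architecture (29), the last with a median of -0.06. Their medians lay between -0.14 and 0.07. At the shares over all genes given above, counts of 0 in lists of this size are near the background. Il7r, the interleukin-7 receptor, read 3109, 756 and 2416 in controls and 947, 899 and 884 with PAX5, so the groups overlapped. In 22 genes of the TNF receptor superfamily 1 rose, Tnfrsf13c. Of 13 Fc receptor genes 1 rose, Fcrl1, and 1 fell, Fcer1g. Fcer1g was also the single fall among 21 natural killer and innate lymphoid genes, where 0 rose, and Irf4 the single rise among 12 plasma cell genes. Tnfrsf13c and Irf4 were lost without PAX5 array 1.

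Over the genes called, PAX5 array 1 and the sample of arrays 2 and 3 differed in the size of the change. Over the 145 genes that rose, the median change was 1.82 on array 1, 1.51 on array 2 and 1.47 on array 3. Array 1 was the highest PAX5 array for 117 of them, the lowest for 17 and between the others for 11. The shares over all genes were not computed. Arrays 2 and 3 are near-identical, which leaves little room for array 1 between them. These genes were called with array 1 as 1 of the 2 PAX5 samples, so the medians and counts only describe them. Pax5 itself was 1849 on array 1 against 891 and 932. Immediate-early genes, which respond within minutes to stimulation and handling, also differed: 0 of 21 passed, with a median of 0.35, but the list summed to 21846 on array 1 against 13747 and 13943 on arrays 2 and 3 and 11090 to 13411 in controls. Fos read 1764, 493 and 490 with PAX5 against 204, 65.4 and 48.0 in controls (log2 change 3.18, adjusted p = 0.072) and Jun 1274, 184 and 191 against 73.9, 56.4 and 60.5 (2.69, 0.12). Their part in the results was not tested.

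**Figure D4:**
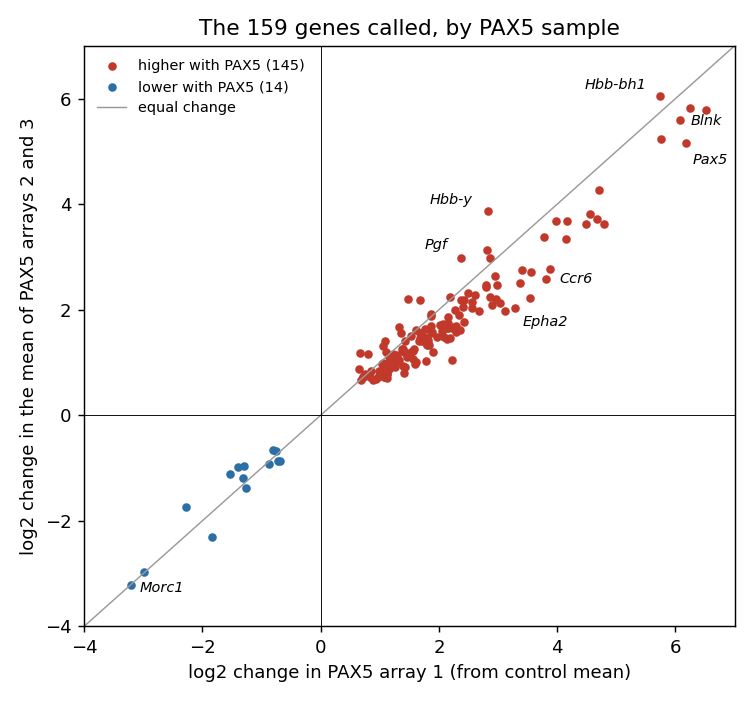
Log2 change from the control mean in PAX5 array 1 (x axis) against the mean of arrays 2 and 3 (y axis), both of intensity plus 16, for the 159 genes that passed. Red points rose, blue points fell and the grey line marks equal change. Most rises lie below the line, as array 1 was the highest for 117 of 145, and Hbb-y and Hbb-bh1 lie above it.

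The EBF1 arrays of the first set come from cells with the same labels that received another factor. Ebf1 itself changed by -0.03 on the arrays labelled EBF1 (adjusted p = 0.97), so its level does not check that label, and whether its probes match the introduced sequence is not known here. Both comparisons use the same control samples, so their changes are set side by side and only the difference of the changes was tested. A PAX5 change can lie below the EBF1 change because the gene rose with EBF1. The PAX5 change lay above the EBF1 change for 246 genes (1.35% of genes tested) and below it for 107 (0.588%), 353 in all. That total was 55 without PAX5 array 1, 167 without arrays 2 and 3, and 167, 154 and 575 without EBF1 array 1, 2 and 3. Of the 145 genes that rose with PAX5, 115 were also higher in this contrast, 0 were lower and 30 did not pass. Among the 14 falls, 5 passed in the same direction and 9 did not. The contrast uses the PAX5 arrays by which these genes were called, so the counts only describe them. H2-Aa changed by -0.17 with EBF1 beside 6.15 with PAX5, a difference of 6.32 (95% interval 5.75 to 6.88, adjusted p = 1.4e-05). Ciita changed by 0.13 beside 2.40, Hbb-bh1 by -0.39 beside 5.89, Ccr2 by -0.78 beside 3.08 and Nrp1 by 0.54 beside 4.18, and each difference passed.

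For several of the largest rises the difference from EBF1 did not pass. Spib changed by 3.27 with EBF1 beside 3.93 with PAX5, a difference of 0.66 (95% interval -0.39 to 1.70, adjusted p = 0.52). Hes1 changed by 3.28 beside 3.14 (difference -0.15, interval -1.15 to 0.86, adjusted p = 0.91). Tnfrsf13c changed by 3.24 beside 4.49, a difference of 1.25 (0.24 to 2.26, adjusted p = 0.20), and Blnk by 3.33 beside 5.84, a difference of 2.51 (1.0 to 4.01, adjusted p = 0.10). None of these differences passed after adjustment over all genes. The intervals are not adjusted, and those of Blnk and Tnfrsf13c lie wholly on the side of a larger change with PAX5. Those of Spib and Hes1 span both directions and leave sizeable differences possible. Cd24a changed by 2.80 beside 2.22, a difference of -0.58 (-1.08 to -0.09, adjusted p = 0.22). Genes of the pre-B receptor, and Ms4a1, changed more with EBF1. Vpreb1 changed by 6.48 with EBF1 beside 0.20 (difference -6.28, adjusted p = 5.9e-05), Igll1 by 5.08 beside -0.17, Ms4a1 by 7.15 beside 0.26, Cd79b by 5.61 beside 1.50 and Cd79a by 3.56 beside 0.41, and all these differences passed.

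**Figure D5:**
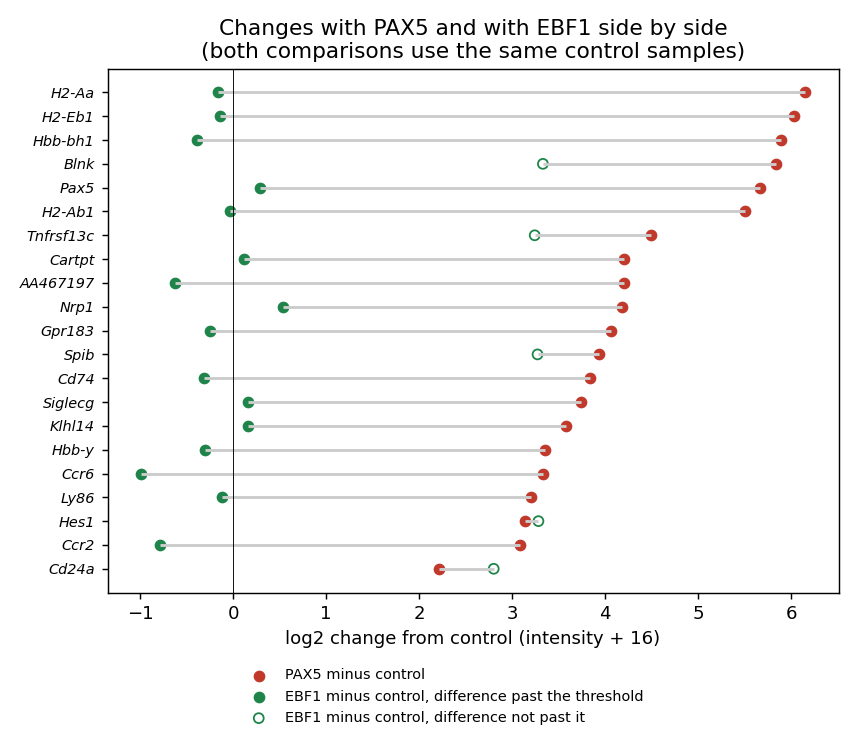
Log2 change from control (of intensity plus 16) with PAX5 (red) and with EBF1 (green) for the 20 largest rises with PAX5 and Cd24a. Filled green points mark genes where the difference of the changes passed the test, open ones where it did not (Blnk, Tnfrsf13c, Spib, Hes1 and Cd24a). Both changes share the control samples, so the pairs are a description.

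Other probe sets of the same genes were read where they existed. At the level of single probe sets, 209 of 45037 rose (0.464%). Of the 145 genes that rose, 75 had other probe sets, 149 in all, of which 57 passed in the same direction and 132 had the same sign. In 32 of the 75 genes at least 1 other probe set passed, and in 43 none did. Among the 14 falls, 6 genes had 10 other probe sets, of which 9 had the same sign and 3 passed, in Hnrnpll and Lhfpl2.

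Promoter windows of the genes that rose were searched for 3 more short motifs on both strands. GCGTGAC, a part of the sequence PAX5 is known to bind, was in 6 of 134 windows (4.48%) against 3.0% of all windows, in AA467197, Ablim1, Cacna1b, Irak2, Itgax and Pgf. CACGTG, an E box, was in 5.22% against 8.72%, and TGACTCA, the AP-1 site, in 6.72% against 4.52%. In the 9 windows of genes that fell the shares were 0.0% for GCGTGAC, 22.2% for CACGTG and 0.0% for TGACTCA. The windows cover 106 of the 145 genes and 7 of the 14.

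Some of the genes that rose lie next to each other. In the gene order of RefSeq, restricted to the genes placed, 9 of 18008 neighbouring pairs had both members higher, with 17 genes in them. They were H2-Ab1 with H2-Aa, H2-Aa with H2-Eb1, Hbb-bh1 with Hbb-y, Tgfb3 with Ift43, Sapcd1 with Msh5, Aldh3b1 with Unc93b1, Enpep with Elovl6, Sema4b with Cib1 and Cyp4f18 with Tpm4.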

How the data were processed

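Each deposited value is the linear intensity of 1 probe set on an Affymetrix array hybridised with biotin-labelled cRNA, per the labels' protocols. The authors' probe summary and array normalization are not given in the sources used. Second-set arrays had 2.62% to 3.05% of probe sets listed at exactly 1, and such values have no order.

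Intensities were used as log2(intensity + 16). Of 45037 probe sets, 34945 carried 1 gene symbol in the platform annotation, and the brightest per gene gave 18193 genes, with no filter on level. Limma 3.58.1 in R 4.3.3 (lmFit, eBayes) was fitted to 3 control, 3 EBF1 and 2 PAX5 samples, with 5 residual degrees of freedom and Benjamini-Hochberg adjustment over all genes at 0.05. The script was tested on simulated data. Equal-numbered control and PAX5 arrays deviated together (r = 0.41, 0.19 and 0.33), against -0.46 to 0.088 for unequal numbers. These values are not independent, since deviations were taken from each group's mean and PAX5 arrays 2 and 3 are near-identical. The replicate block takes the numbers to pair arrays, and the main fit does not. Because PAX5 arrays 2 and 3 count as 1 sample, the block was fitted only as an alternative on 6 arrays.

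Members and lists were chosen with earlier results of these data known. The 30 lists hold 655 genes, 591 measured. Of these, 1 list is not reported here. Named are the 20 largest rises and up to 20 falls that passed with separate groups, list members that passed, a set of B-lineage genes whatever their result, and the 3 nearest non-passing members of a list. Further genes were named after their values were seen, as examples from the lists. Promoters came from RefSeq (GRCm38.p6).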

Additional observations from a re-analysis of the deposited data

How the results depend on the processing

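Every gene that passed kept its direction in each alternative in which it was tested, which separate groups largely fix, and many calls were lost in some of them. Counting every array of the second set once gave 192 higher and 52 lower, and the replicate block 212 and 39. The block also moved the list counts given above, and among the named genes it removed the calls of Pnmt, Ecscr, Fgf8, Dll1, Itga6 and Vwf and added Cd79b, Bach2 and Foxo1. The second set alone gave 97 and 8, a pseudocount of 4 gave 95 and 13, and an intensity trend with robust moderation gave 188 and 22, with 536 genes in the PAX5 and EBF1 difference. PAX5 array 2 or 3 alone for their mean, a pseudocount of 64, the mean of probe sets, quantile normalization and leaving out dim genes gave 136 to 159 higher and 14 to 21 lower. Without PAX5 replicate 2 and its near-copy 3 the counts were 90, 2 and, for the difference, 167. Over the other fits that left out a sample the rises ran from 28 to 156, the falls from 0 to 20 and the differences from 55 to 575.

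For the 74 named genes measured, 1392 values were computed, of which 1165 stayed on the same side of the threshold, 206 lost a call, 10 gained one and 11 changed sign. The sign changes were small and in genes without a call. The log2 change of Ebf1 was -0.014 with every array counted or with the block, -0.0039 with PAX5 array 2 alone, 0.060 without PAX5 arrays 2 and 3, and between -0.050 and 0.039 over the other fits that left out a sample. Csf1r lay at 0.25 and Ikzf3 at -0.075 with the mean of probe sets. Over those other fits Csf1r ran from -0.12 to 0.017 and Ptprc from -0.025 to 0.10, and Id3 stood at -0.30 without PAX5 arrays 2 and 3. The precision is limited by 2 PAX5 samples, of which 1 sets many calls, and by values near the floor for dim genes.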
